A study of Mus musculus with 3 samples.

Results

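Peaks of the zinc-finger protein PATZ1 were examined at 4 mouse loci, those of Pparg, Cebpa, Fabp4 and Adipoq, on 2 days of adipocyte differentiation. The cells were 10T1/2, an established mouse mesenchymal line that can be turned into adipocytes, and chromatin was immunoprecipitated with an antibody to PATZ1 at day 0 and at day 5 of differentiation. Each day is represented by 1 library, and a single library of input chromatin, labelled for both days, accompanies them. The labels give no genotype and no differentiation agents. A peak belonged to a locus where its summit lay in a fixed window of the mm9 genome: chr6:115260001-115490000 for Pparg (230 kb), chr7:35850001-35960000 for Cebpa (110 kb), chr3:10150001-10260000 for Fabp4 (110 kb) and chr16:23095001-23210000 for Adipoq (115 kb). These windows held 55 of the 315100 day 0 peaks and 187 of the 852421 day 5 peaks. The rule uses positions and no measured value.

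PATZ1, also known as MAZR, is a transcription factor of the BTB zinc-finger family that binds G-rich DNA and can activate or repress genes. Fat cell formation is driven by PPARγ, the nuclear receptor encoded by Pparg, and by C/EBPα, the leucine zipper factor encoded by Cebpa, each of which sustains expression of the other. Fabp4, which encodes the fatty acid carrier of adipocytes, and Adipoq, which encodes the hormone adiponectin, are targets of both regulators. The title of the study places PATZ1 at promoter regulatory loci of adipogenic factors, and the windows address whether the deposited peaks gather at these genes. The windows may hold more than these 4 genes, and a peak in a window is not assigned to one of them.

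The promoters named in that title are shown as the 250 bases before each start that RefSeq lists in GRCm38.p6, for the 3 genes with an entry. Capitals mark matches, on either strand, to GGGGNGGGG, a G-rich word of the kind PATZ1 is known to bind, and to GGGCGG, the GC box, which can overlap it. Because the peaks are in mm9 and these coordinates in GRCm38, no peak was placed relative to a start, an exon or an intron.
Pparg start a, chr6:115360894-115361143, plus strand: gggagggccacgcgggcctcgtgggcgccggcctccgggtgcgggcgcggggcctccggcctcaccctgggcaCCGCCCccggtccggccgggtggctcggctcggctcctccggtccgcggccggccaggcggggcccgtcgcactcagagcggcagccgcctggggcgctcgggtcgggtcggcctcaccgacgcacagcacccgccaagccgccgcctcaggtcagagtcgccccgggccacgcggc
Pparg start b, chr6:115362099-115362348, plus strand: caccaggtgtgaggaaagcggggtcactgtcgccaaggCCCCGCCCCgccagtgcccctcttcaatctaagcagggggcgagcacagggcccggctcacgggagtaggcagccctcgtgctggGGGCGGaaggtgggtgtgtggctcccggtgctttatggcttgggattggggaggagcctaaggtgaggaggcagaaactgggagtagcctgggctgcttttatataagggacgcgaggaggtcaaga
Pparg start c, chr6:115421816-115422065, plus strand: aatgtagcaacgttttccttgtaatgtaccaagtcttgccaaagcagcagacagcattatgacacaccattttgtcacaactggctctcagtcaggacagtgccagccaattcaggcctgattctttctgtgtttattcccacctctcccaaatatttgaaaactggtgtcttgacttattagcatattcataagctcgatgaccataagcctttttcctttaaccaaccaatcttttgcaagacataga
Cebpa, chr7:35119043-35119292, plus strand: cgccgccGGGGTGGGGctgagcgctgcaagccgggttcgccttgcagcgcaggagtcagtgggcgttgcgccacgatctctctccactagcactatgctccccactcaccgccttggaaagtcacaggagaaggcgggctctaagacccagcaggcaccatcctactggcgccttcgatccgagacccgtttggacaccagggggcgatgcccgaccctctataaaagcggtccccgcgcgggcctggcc
Adipoq, chr16:23146286-23146535, plus strand: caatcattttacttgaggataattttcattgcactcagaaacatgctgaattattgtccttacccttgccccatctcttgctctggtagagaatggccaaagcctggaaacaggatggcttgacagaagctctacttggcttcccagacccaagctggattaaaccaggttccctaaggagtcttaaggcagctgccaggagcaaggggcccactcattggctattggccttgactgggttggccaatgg

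GGGGNGGGG occurred 1 time at Pparg start b and 1 time at Cebpa, and in 20.6% of all 32851 RefSeq promoters of this length. GGGCGG occurred 1 time at Pparg start a and 2 times at start b, against 32.7% of promoters that hold it. The promoter of Pparg start a had 82.4% G and C, Cebpa 66.4%, start b 63.6%, Adipoq 48.8% and Pparg start c 40.8%, beside a median of 52.4% over all promoters. The promoters of Adipoq and Pparg start c held neither G-rich word. CCAAT occurred 3 times at Adipoq, 2 times at Pparg start c and 1 time at start b (33.8% of promoters hold it). TATAAA occurred 1 time at Cebpa and 1 time at Pparg start b (12.4% of promoters). These matches describe the letters of these windows and are no evidence of binding.

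Depth was similar on both days, at 8.55 reads per kb on day 0 and 8.07 on day 5. Reads were extended to 228 bp in the day 0 list and to 56 bp in the day 5 list, taken as the narrowest peak, so that pile-ups, widths and limits are not on one scale between days. The reads piled up at a summit and the background they were compared with were solved from the fold and −log10 p of each peak, which are the authors' deposited values, and all 242 members gave a whole number of reads. Since each day rests on 1 library, no comparison has a replicate check and none was tested, and intervals cover counting error only. Each locus was set beside windows of its own length moved by 1, 2, 3 and 4 Mb to either side on the same chromosome, 8 per locus, which held 747 day 0 and 1382 day 5 peaks.

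No member passed a q of 0.05 on either day, which is near the share of the lists as a whole. Of the 55 day 0 members 0 had a q of at most 0.05, which allows a share of up to 5.45%, and 2.09% of the whole day 0 list passed this limit. Among the moved windows 8 of 32 held such day 0 peaks, 13 in all, or 1.74% of their peaks. Of the 187 day 5 members 0 passed, which allows up to 1.60%, against 0.00129% of the whole day 5 list and 0 peaks in the moved windows. The highest −log10 q of a member was 0.947 on day 0 and 0.118 on day 5, both at Pparg, the latter value being shared with members at Fabp4 and Adipoq. Over the lowest background, a peak needed 10 reads on day 0 and 8 reads on day 5 to reach that q. Members held 5 to 19 reads on day 0, with a median of 8, and 2 to 7 reads on day 5, with a median of 4. Medians in the moved windows were 7 and 3 reads.

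A −log10 p of at least 3 was met by 16 of the 55 day 0 members (29.1%, exact 95% binomial interval 17.6 to 42.9), beside 24.6% of the whole list and 26.5% of the moved windows' peaks. At day 5 it was met by 37 of 187 (19.8%, 14.3 to 26.2), beside 15.4% of the list and 15.99% of the moved windows' peaks. The intervals of both days include the shares of the list and of the moved windows. The median fold of the members was 2.28 on day 0 and 2.495 on day 5, against 2.31 and 2.45 in the moved windows. Their median −log10 p was 2.58 on day 0 and 2.45 on day 5, against 2.40 and 2.39 in the moved windows. Median widths were 276 bp against 280 bp on day 0 and 67 bp against 58 bp on day 5.

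**Figure D1:**
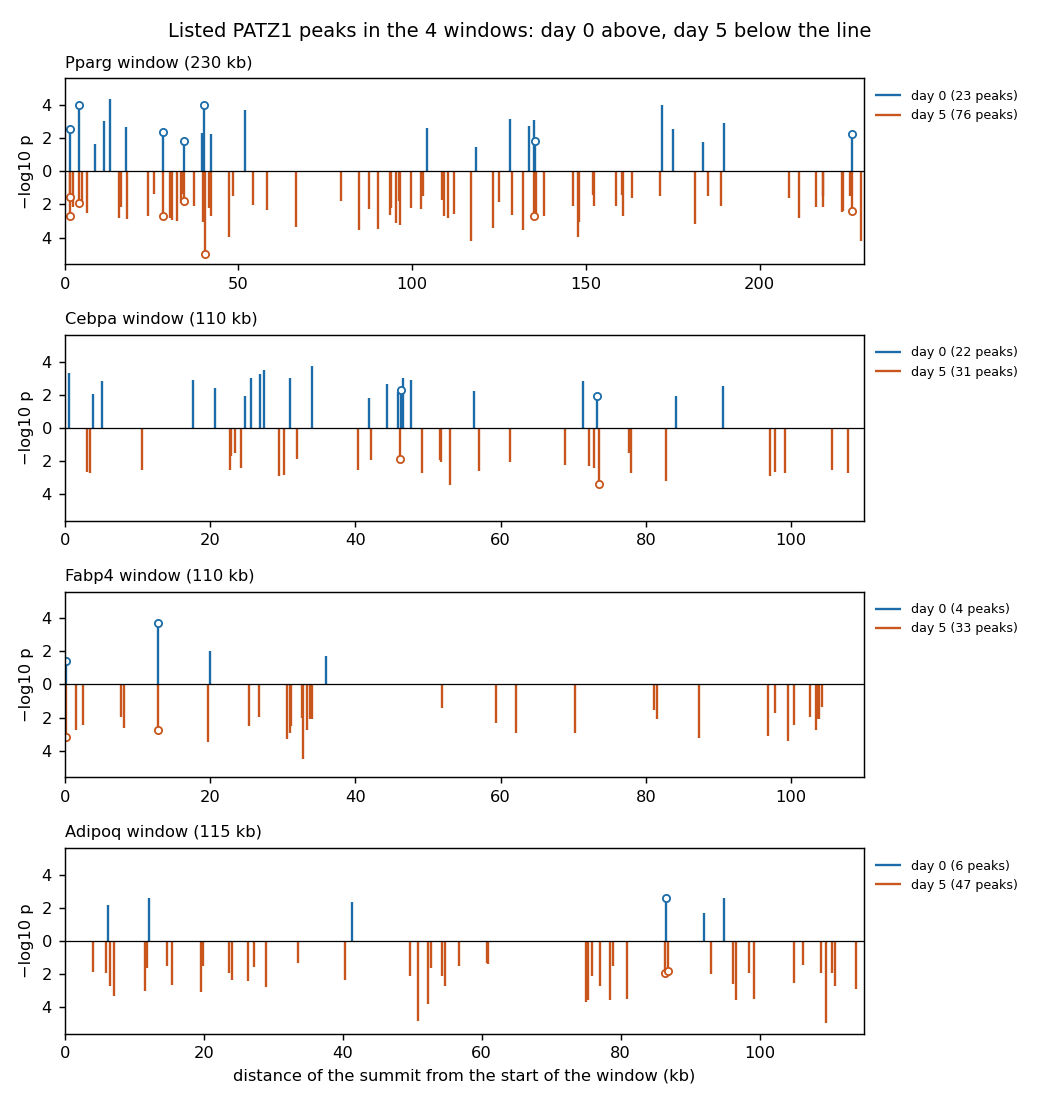
Position of every listed peak in the 4 windows, as distance of its summit from the window start in kb, with its −log10 p drawn upward for day 0 and downward for day 5; open circles mark peaks that share bases with a peak of the other day. Day 0 peaks are absent from the last 74.0 kb of the Fabp4 window, where day 5 peaks continue.

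At the Pparg locus the day 0 list was sparse. It held 23 peaks, 100 per Mb, while the 8 moved windows held 28 to 83, so that each of them held more than Pparg. The ratio to their mean of 46.4 was 0.496, with an exact 95% interval of 0.31 to 0.756, and it was 0.309 in the middle 50% of each window. At day 5 the locus held 76 peaks, 330.4 per Mb, with 62 to 100 in the moved windows and a ratio of 0.869 (0.676 to 1.10), which the counting error does not separate from 1. The stretch without a day 0 summit from chr6:115311766 to chr6:115364364 was 52.6 kb long, and 15 day 5 summits lay in it. The longest such stretches within the moved windows were 14.3 to 51.0 kb, but they are cut at the window edges. The stretch of 51.0 kb ran up to an edge, so its full length may be greater. Of the 24089 distances between neighbouring day 0 summits on chromosome 6, 93 (0.386%) were at least 52.6 kb. The median distance was 3.33 kb. This stretch was taken as the longest that reaches into the window, so its share among single distances tends to be small by that choice. The longest stretches at Cebpa and Adipoq, taken in the same way, were 29.85 and 64.15 kb. On their chromosomes 7.29% and 2.27% of the distances were at least as long.

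The strongest day 0 peak at Pparg, chr6:115272771-115273048, held 12 reads over a background of 3.31, a fold of 3.02 and a −log10 p of 4.36. It lay 12.9 kb into the window and shared no base with a day 5 peak. The next were chr6:115431680-115431922, with 15 reads over 5.14, and chr6:115263969-115264308, with 11 reads over 3.10, both at a −log10 p of 4.02. They lay 4.1, 12.9 and 171.8 kb into the window and formed no single cluster. The largest pile-up, 19 reads at chr6:115311609-115311917, stood over the largest background of these peaks, 7.85, at a fold of 2.26. The widest peak, chr6:115449378-115449992, spanned 615 bp with 12 reads.

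At day 5 the strongest peak of any of the 4 loci was chr6:115300323-115300396 at Pparg, with 6 reads over a background of 0.713, a fold of 4.09 and a −log10 p of 4.999. It lay wholly within a day 0 peak, chr6:115300097-115300505, which was the fourth strongest of the day 0 peaks at Pparg with 11 reads over 3.12 and a −log10 p of 3.99, although their summits were 154 bp apart. The other leading day 5 peaks at Pparg, chr6:115376960-115377029 with 6 reads and chr6:115489084-115489210 with 7 reads, had folds of 3.59 and 3.49 and no day 0 partner. The widest day 5 peak, chr6:115486586-115486780, was 195 bp long with 4 reads and lay inside a day 0 peak of 228 bp with 10 reads.

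At the Cebpa locus the lists were denser than on the rest of the chromosome, which includes long stretches with no peak in either list. The ratio to the moved windows depended on windows that held no peak. The day 0 list held 22 peaks, 200.0 per Mb against 82.5 per Mb on the rest of chromosome 7, and the day 5 list held 31, 281.8 per Mb against 155.4. Of the 8 moved windows 3 held no peak in either list, and the other 5 held 11 to 37 day 0 and 13 to 33 day 5 peaks. Over all 8 the ratio was 1.44 (0.872 to 2.28) on day 0 and 2.36 (1.53 to 3.56) on day 5. Without the 3 empty windows, an alternative chosen after seeing the data, it was 0.902 on day 0 and 1.48 on day 5, and of those 5 windows 3 held more day 0 peaks and 1 more day 5 peaks than Cebpa.

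The day 0 peaks at Cebpa held 5 to 9 reads, with folds from 1.95 to 3.05 and −log10 p from 1.83 to 3.70. The strongest, chr7:35883955-35884282, had 8 reads over the lowest background of the list, 1.95, a fold of 3.05 and a −log10 p of 3.70, values that 6047 peaks of the day 0 list share exactly. The second, chr7:35877183-35877981, was also the widest member on day 0, at 799 bp, with 8 reads over 2.11. The third, chr7:35850368-35850676, held 9 reads over 2.69 and lay 0.6 kb inside the window's left edge. The median −log10 p of 2.72 was higher than in each of the 5 moved windows with peaks (2.15 to 2.40), and so was the median fold, 2.44 against 2.17 to 2.37. The binomial intervals of these medians, 2.16 to 3.03 and 2.14 to 2.71, include the highest moved values. Counting error therefore does not separate Cebpa from them. The day 0 median −log10 p at Pparg, 2.60, was also above all 8 of its moved windows (2.16 to 2.58). That at Adipoq was above 5 of 8 and that at Fabp4 above 1 of 8.

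At day 5 the leading Cebpa peaks were chr7:35902989-35903044 with 5 reads, chr7:35923482-35923539 with 4 reads and chr7:35932604-35932768 with 4 reads. Their −log10 p values were 3.44, 3.38 and 3.23. The highest of them was below the highest at each of the other loci, and 4 of the 5 moved windows with peaks had a stronger one. The largest pile-up, 6 reads at chr7:35957740-35957795, had a −log10 p of only 2.71 over its background of 1.71.

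Fabp4 had the fewest day 0 peaks of the 4 loci. The window held 4, or 36.4 per Mb, against 14 to 31 in every moved window and 231.5 per Mb on the rest of chromosome 3. The ratio was 0.178, with an exact 95% interval of 0.0479 to 0.463. It was 0.0870 in the middle 50% of each window, where Fabp4 held only the day 0 peak chr3:10185933-10186160. In the same window the day 5 list held 33 peaks, within the 24 to 59 of the moved windows, at a ratio of 0.871 (0.589 to 1.25). The ratios of both days use the same places, but their difference was not tested.

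The 4 day 0 peaks at Fabp4 lay in the first 36.0 kb of the window. They were chr3:10162699-10163049, with 8 reads over 1.95 and a −log10 p of 3.70, chr3:10169937-10170185, with 7 reads over 2.89, chr3:10185933-10186160, with 7 reads over 3.33, and chr3:10150136-10150363, with 6 reads over 3.10. The last of these lay 0.2 kb inside the left edge, and the nearest summit outside that edge was 16501 bp away. From the summit at chr3:10185995 the next day 0 summit followed at chr3:10308518, beyond the window, after 122.5 kb. Of the 36236 distances between neighbouring day 0 summits on chromosome 3, 11 (0.0304%) were at least that long, and their median was 2.42 kb. The day 5 list had 34 summits in this stretch, 277.5 per Mb, against 376.0 per Mb on the rest of the chromosome. The stretch was singled out after its values were seen, as the longest that reaches into the window, a choice that favours a small share.

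The strongest day 5 peak at Fabp4, chr3:10182792-10182893, held 6 reads over 0.855 with a fold of 3.77 and a −log10 p of 4.50. It lay in the fullest 10 kb of the window, which held 10 day 5 summits, and 6 of the 8 moved windows reached fewer. The peaks chr3:10169671-10169726 and chr3:10249606-10249682 followed with 4 and 5 reads and −log10 p of 3.49 and 3.39. The widest day 5 member of all loci, chr3:10151411-10151728, spanned 318 bp at 4 reads and was wider than any peak of its moved windows (up to 215 bp).

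At Adipoq, neither list held clearly more or fewer peaks than its surroundings. The day 0 list held 6 peaks, 52.2 per Mb, among 1 to 17 in the moved windows, a ratio of 0.649 (0.231 to 1.48). It was 0.216 in the middle 50% of each window, where Adipoq held only the day 0 peak chr16:23136310-23136537. The day 5 list held 47, 408.7 per Mb and the densest of the 4 loci on that day, among 9 to 56, a ratio of 1.37 (0.985 to 1.88). Both intervals include 1. A −log10 p of at least 3 was met by 0 of the 6 day 0 peaks, against 19 of 74 (25.7%) in the moved windows and 24.6% of the list. With 6 peaks, a count of 0 cannot be told apart from these shares. At day 5 it was met by 12 of 47 (25.5%), against 17.5% in the moved windows and 15.4% of the list. The density ratio of such peaks was 2.00. No interval was computed for these shares or this ratio, and the counts behind them are small.

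No day 0 peak at Adipoq had a −log10 p above 2.62, and 7 of the 8 moved windows had a stronger one. The leading peaks, chr16:23181343-23181818 and chr16:23189642-23190070, both held 7 reads over 2.27 at a fold of 2.44, and chr16:23106910-23107299 held 12 reads over 5.17. The first was also the widest, at 476 bp, and the median width of 317 bp was above that of each moved window (245 to 301 bp). At day 5 the leading peak was chr16:23204569-23204687, with 5 reads over 0.479, a fold of 4.06 and a −log10 p of 4.95. The next, chr16:23145739-23145815 with 7 reads and chr16:23147227-23147334 with 6 reads, lay 50.8 and 52.3 kb into the window, with −log10 p of 4.83 and 3.82. The widest day 5 peak, chr16:23123813-23123942, was 130 bp long, below the widest peak of each moved window.

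**Figure D2:**
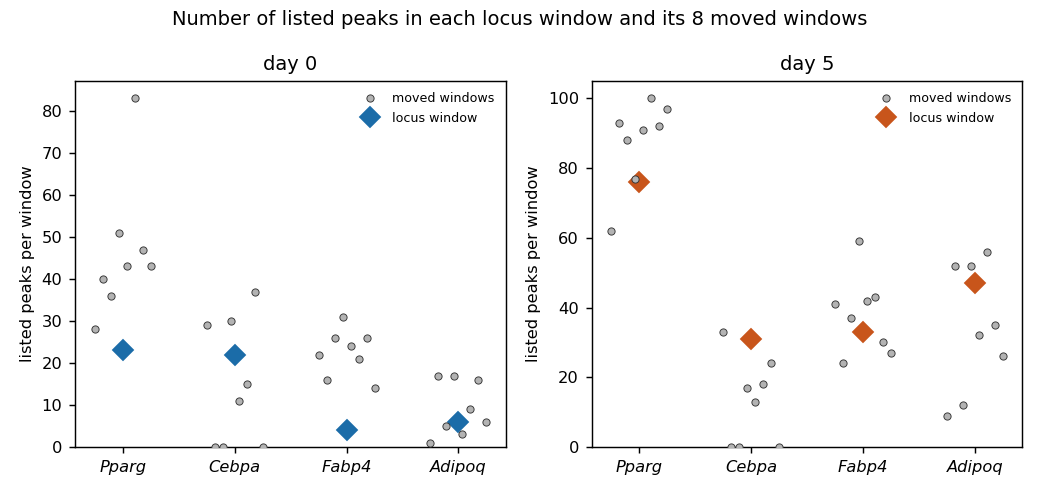
Listed peaks per window for each locus (diamonds) and its 8 moved windows (circles, from −4 Mb on the left to 4 Mb on the right), day 0 on the left and day 5 on the right. On day 0 Pparg (23 peaks) and Fabp4 (4 peaks) lie under all of their moved windows; 3 of the Cebpa circles lie at 0 on both days.

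**Figure D3:**
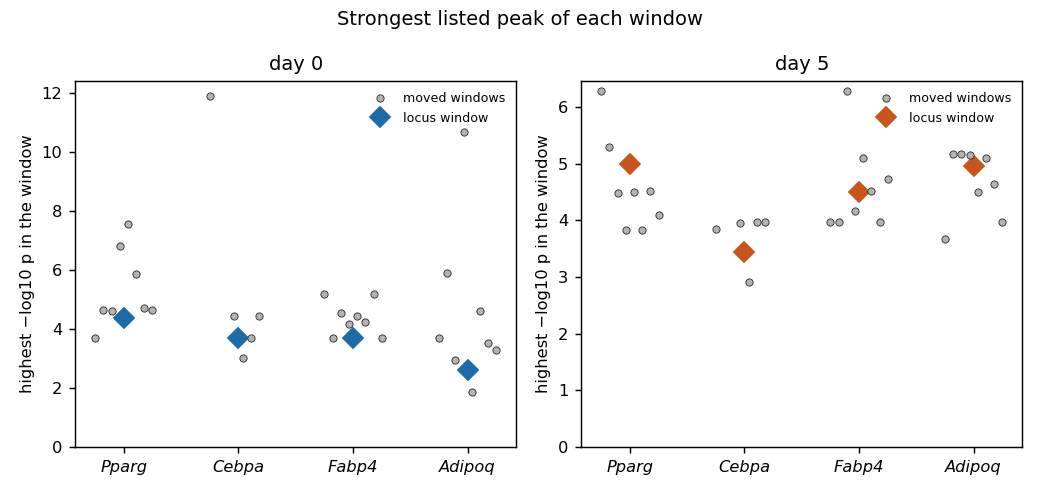
Highest −log10 p of each window, for the loci (diamonds) and their moved windows with peaks (circles). The 4 loci reach 2.62 to 4.36 on day 0, where moved windows reach 1.86 to 11.9, and 3.44 to 4.999 on day 5, where moved windows reach 2.92 to 6.29.

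The background behind the peaks was higher at the loci than in most of their moved windows at day 5, and less regularly so on day 0. At day 5 the median background at the summits was 1.006 reads at Pparg, 0.855 at Fabp4, 0.632 at Cebpa and 0.855 at Adipoq. These values exceeded those of all 8 moved windows at Pparg (0.476 to 0.856) and Fabp4 (0.452 to 0.718), of all 5 with peaks at Cebpa (0.452 to 0.512) and of 7 of 8 at Adipoq, where 1 equalled it. On day 0 the median of 2.996 at Fabp4 was above all 8 moved windows (1.95 to 2.75), and that of 3.72 at Pparg above 7 of 8. At Cebpa the day 0 median of 2.34 was within the range of its moved windows (1.95 to 2.69), and at Adipoq that of 2.40 was below 5 of 8 (1.95 to 3.78). A higher background needs more reads for the same −log10 p. The part of the background in the counts of peaks was not tested on either day. The background is known only at the listed summits.

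**Figure D4:**
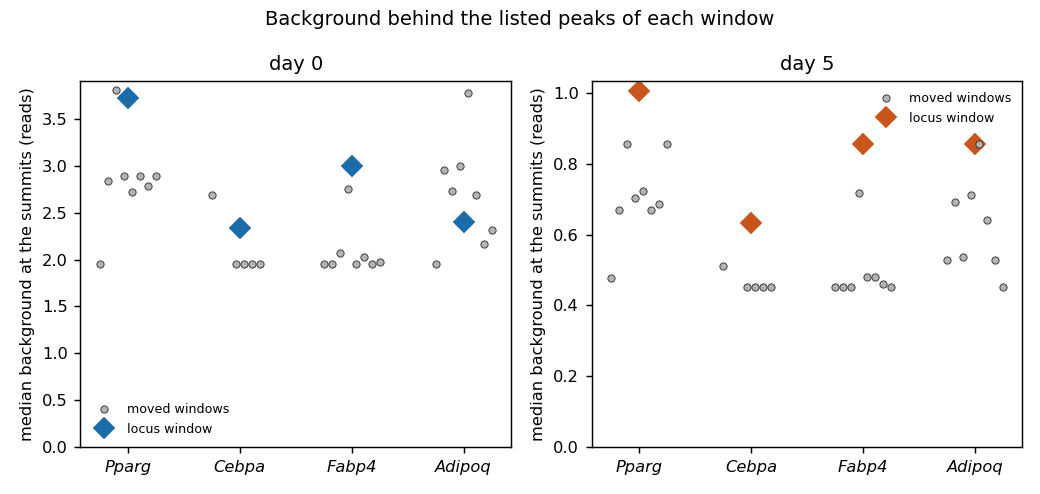
Median background at the listed summits, in reads, for each locus (diamonds) and its moved windows with peaks (circles). The Pparg and Fabp4 diamonds at day 5 (1.006 and 0.855 reads) lie above every circle of their column.

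Peaks of both days met in the windows about as often as in the lists as a whole. Of the 55 day 0 members 12 (21.8%, exact 95% binomial interval 11.8 to 35.0) shared at least 1 bp with a day 5 peak, against 22.1% of the day 0 list and 21.0% of the moved windows' day 0 peaks. Of the 187 day 5 members 14 (7.49%, 4.15 to 12.2) shared a base with a day 0 peak, against 8.84% of the list and 12.4% of the moved windows' day 5 peaks, a value just past the upper end of the interval. By locus the overlapping day 0 peaks were 7 of 23 at Pparg, 2 of 22 at Cebpa, 2 of 4 at Fabp4 and 1 of 6 at Adipoq. The labels give a single input library for both days, and its part in the overlaps was not tested.

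The 14 pairs involved 7 with summits within 100 bp. At Fabp4 the strongest day 0 peak covered the day 5 peak chr3:10162819-10162993, which held 4 reads at a fold of 2.70, with summits 63 bp apart. At Adipoq the strongest day 0 peak met 2 day 5 peaks, chr16:23181348-23181403 with 3 reads and chr16:23181770-23181868 with 2 reads. At Pparg the third day 0 peak covered chr6:115264111-115264214, with 3 reads at a fold of 2.16. None of the 3 strongest day 0 peaks at Cebpa shared a base with a day 5 peak. Pile-ups fall with the extension length. If they fell in proportion to extension and depth, the 12 reads of the leading day 0 peak at Pparg would become 2.78 reads on day 5. The 8 reads of the leading peaks at Cebpa and Fabp4 would become 1.85. Reads gathered at a summit need not fall in that proportion. The fewest reads of a listed day 5 peak were 2, so a site of unchanged strength may or may not be listed at day 5, and a missing partner is no measure of lost binding.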

How the data were processed

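The authors deposited a peak list and a summit list per day, so calling was done per library. Per the labels' protocols, chromatin was sonicated and reads were single-end. Per the submitters' processing notes, Bowtie2 and HOMER were used and the builds mm9, mm10 and GRCm38 are named. No source used here names the peak caller. Coordinates were read as mm9, since 9 of 21 chromosomes have a peak past the mm10 end and 0 past the mm9 end. In the deposited lists the fold is a ratio of reads to local background, with 1 added to both, the −log10 p and −log10 q belong to the summit, and the score is the −log10 p times 10, rounded down (1 day 0 peak differs).

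Reads and background were solved from fold = (reads + 1) / (background + 1) and the Poisson probability of more reads, to a relative difference of 0.0001. This left 1 day 0 and 0 day 5 peaks unsolved, and returned 100% of 5000 simulated peaks per day. The narrowest peak was taken as the extension, and the lowest background over it as the depth (8.55 and 8.07 reads per kb). Ratios have exact intervals conditional on the total count, shares Clopper-Pearson 95% intervals, and counts of 0 a floor of 3 counts. Medians have binomial 95% intervals from the ranked values. All cover counting error only, and neighbouring peaks are not independent.

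Named peaks were, per locus and day, the 3 with the highest −log10 p, the widest, the one with most reads, any with a q of at most 0.05, and partners of the 3 strongest day 0 peaks. Others in the text, such as the day 0 partner of the strongest day 5 peak, were chosen after their values were seen. The loci, lists and rules were chosen with earlier results of these data known. Other adipogenic genes were not analysed here, since no gene positions in mm9 were used. The limits on −log10 p, the choice and span of moved windows, and the definition of overlap were varied. Software was matplotlib 3.10.9, scipy 1.17.1, pandas 2.3.3 and numpy 2.4.6 under Python 3.11.15.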

Additional observations from a re-analysis of the deposited data

How the results depend on the processing

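Of 98 alternative values, 87 stayed within the counting interval of the reported value, and none of the ratios whose interval excludes 1 changed side. In the middle 50% of each window the day 0 ratio was 0.309 at Pparg, 0.216 at Adipoq and 0.0870 at Fabp4. The Adipoq and Fabp4 values rest on very few day 0 peaks, and these ratios have no interval. With a −log10 p of at least 3, Adipoq had a ratio of 0 on day 0 and 2.00 on day 5, from 0 and 12 peaks. Against the whole chromosome the Cebpa ratio was 2.43 on day 0. Without the 3 moved windows that hold no peak, a choice made after seeing the data, the Cebpa ratio was 1.48 on day 5 and 0.902 on day 0, which turns its direction. The share of day 0 members with a day 5 partner was 1.82% at 50% reciprocal overlap and 11.6% with a −log10 p of at least 2 in both lists. The share of day 5 members with a day 0 partner was 3.74% with summits within 100 bp, 0.535% at 50% reciprocal overlap and 3.76% with a −log10 p of at least 2. Peaks of unequal width in the 2 lists seldom meet 50% of both by construction. The cause of the other shifts was not tested. No paired analysis was possible because each day has 1 library. Depth limits these comparisons: the fewest reads of a listed peak are 4 on day 0 and 2 on day 5.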

Other observations

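The moved windows around Cebpa met long stretches of chromosome 7 with no peak in either list. One ran from chr7:32160280 to chr7:34266169, 2.11 Mb long and 1.58 Mb from the Cebpa window, and another from chr7:39057595 to chr7:46517989, 7.46 Mb long and 3.10 Mb from it. Chromosome 7 had 5 such stretches of over 1 Mb. Any ratio that uses these windows as surroundings of Cebpa depends on whether they are counted.

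Among the moved windows, those with the strongest day 0 peaks were the window 4 Mb before Cebpa, with a highest −log10 p of 11.9, and the window 1 Mb before Adipoq, with 10.7 and 3 peaks at a q of at most 0.05. These windows were singled out after their values were seen. Both held stronger day 0 peaks than any of the 4 loci, whose highest −log10 p was 4.36. The 32 moved windows held 747 day 0 peaks and the loci 55, and a highest value rises with the number of peaks.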
